A study of Asparagus officinalis with 3 samples.

Results

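The miR827 family of garden asparagus (Asparagus officinalis), a species with separate male and female plants, was taken as every listed miRNA whose family was given as miR827, together with every target pair listed for that family. This gave 5 of the 194 listed miRNAs, and 16 of the 463 listed target pairs, which fell on 7 of the 194 target unigenes. The small RNA libraries were made from 3-year-old greenhouse plants, 1 from female and 1 from male plants, and each pooled equal amounts of RNA from flowers, stems, leaves and roots. No further treatment or genotype was given in the labels, and a difference between organs cannot be told apart from a difference within an organ in such pools. A degradome library of both sexes together was not analysed here. With 1 library per sex there was no replicate error, and the sexes were compared without a test.

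In plants, a mature miRNA guides an Argonaute protein to RNAs that pair with it along most of its length, and the target is usually cut opposite the middle of the miRNA. miR827 is best known from phosphate supply. In Arabidopsis it accumulates when phosphate is short and acts on NLA, a ubiquitin ligase with an SPX domain that marks phosphate transporters for removal, and in rice it acts on SPX-MFS genes, which encode transporters that move phosphate across the vacuolar membrane.

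The 5 mature sequences are shown because their whole difference lay in the last bases. The capitals mark the seed, bases 2 to 8 from the 5′ end.
aof-miR827a: uUAGAUGAccaucaacaaac
aof-miR827b: uUAGAUGAccaucaacaaau
aof-miR827c: uUAGAUGAccaucaacaaaca
aof-miR827d: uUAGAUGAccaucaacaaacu
aof-miR827e: uUAGAUGAccaucaacaaauu

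All 5 members shared their first 19 bases, and so the seed. Positions are counted from 1 at the 5′ end. Against aof-miR827c, the change in aof-miR827d was A21U, aof-miR827e had C20U and A21U, and aof-miR827b differed from aof-miR827a by C20U. The 20-nt aof-miR827a was the start of both aof-miR827c and aof-miR827d, and the 20-nt aof-miR827b was the start of aof-miR827e, so a shortened copy of either longer form would read as aof-miR827a. No listed miRNA outside the family had the same bases 2 to 8, or even 2 to 7. The longest stretch shared with any of them was 8 nt, with aof-miR172b.

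The values are reads of each unique sequence scaled to the depth of its library, called TPM by the authors, with no division by length. Summed over the 194 listed miRNAs they came to 56836 TPM (female) and 50894 TPM (male), and the median log2 ratio of female to male was 0.17, so ratios near that value were usual in these libraries. Almost every low value was a whole multiple of 1 step (99.4% of the values up to 60 TPM in each library, within 0.0051 TPM), and the step was 0.229 TPM (female) and 0.157 TPM (male). If 1 step is 1 read, the values were divided by about 4373600 reads in the female and 6374825 in the male library. Both numbers lie above the final clean reads that the study states for these libraries and under its clean reads before structural RNAs were removed, and which reads served as the divisor is not given in the sources used here, so the condition was not settled. The 95% intervals given for ratios are exact binomial intervals on that condition. Those for differences of log2 ratios between members are conditional odds ratio intervals on the same condition. Both kinds cover counting error only.

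The family as a whole was higher in the female library. Its members summed to 663.3 TPM in female and 412.73 TPM in male plants, which gave a ratio of 1.61 (counting interval 1.52 to 1.69). This was 1.17% of the female and 0.811% of the male listed sum. The family ranked 8 of 26 families by summed value in both libraries, and its log2 ratio of 0.68 was the 7th highest of the 26. Relative to the median ratio of all listed miRNAs, the log2 ratio of the family was 0.51.

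aof-miR827c, the 21-nt form ending in CA, was the member that differed most between the libraries. Its values were 377.95 TPM (female) and 167.85 TPM (male), and their ratio was 2.25 (counting interval 2.08 to 2.43). It was the only member over 2-fold apart. The study also calls it, alone of the miR827 members, differentially expressed, by Fisher's exact and chi-square tests on these same libraries. The excess of the whole family in the female library came mainly from aof-miR827c. Without aof-miR827c the family log2 ratio was 0.22, and without aof-miR827d it was 1.07. The 2-fold call was a narrow one, since relative to the median ratio of all listed miRNAs the log2 ratio of aof-miR827c was 0.996.

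aof-miR827d, the 21-nt form ending in CU, was close to equal in the 2 libraries. Its values were 175.83 TPM (female) and 180.09 TPM (male), and their ratio was 0.976 with a counting interval of 0.890 to 1.07 that includes equality. aof-miR827c and aof-miR827d were the only members to reach 100 TPM in either library.

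The 20-nt aof-miR827a stood at 97.4 TPM (female) and 53.81 TPM (male), with a ratio of 1.81 (counting interval 1.57 to 2.09). It was higher in the female library, as aof-miR827c was, though by less.

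The members that carry U at position 20 were rare. aof-miR827b stood at 5.03 TPM (female) and 2.67 TPM (male), with a counting interval of 0.956 to 3.78 around its ratio of 1.88. aof-miR827e stood at 7.09 and 8.31 TPM, with an interval of 0.529 to 1.35 around 0.853. Both intervals include equality, so these members did not differ between the 2 libraries beyond counting error. The smallest value that any listed miRNA had in its higher library was 5.02 TPM, so aof-miR827b was listed on its female value.

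**Figure D1:**
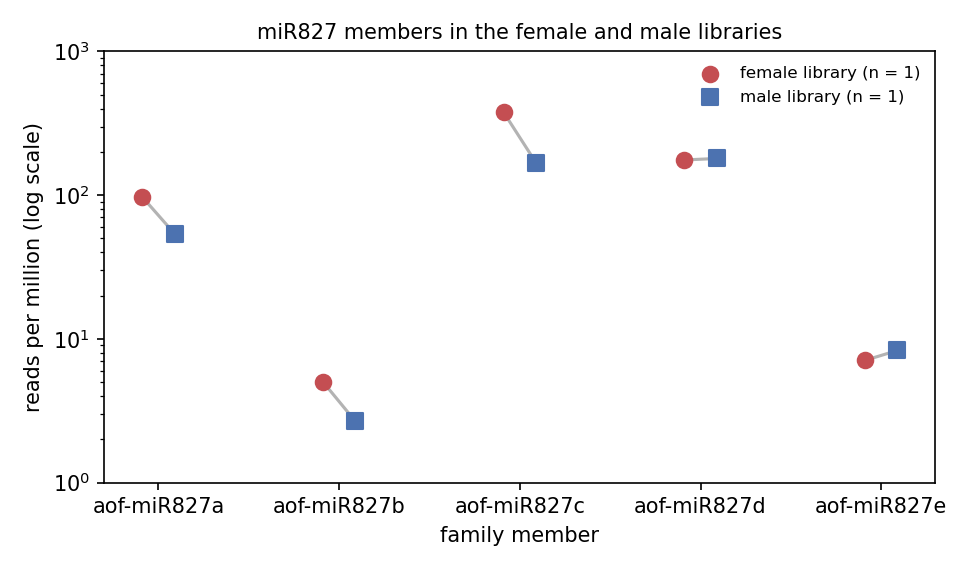
Value of each miR827 member in TPM (log axis) in the female and the male library, 1 library per sex. aof-miR827c and aof-miR827a were higher in the female library, whereas aof-miR827d (175.83 and 180.09 TPM) lay almost level. The rare aof-miR827b (5.03 and 2.67 TPM) was listed on its female value.

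In all, 3 members were higher in the female and 2 in the male library, and the median log2 ratio of the 5 was 0.86. The 3 include aof-miR827b, which was listed on its female value. Only aof-miR827a and aof-miR827c had counting intervals that excluded equality. The single member over 2-fold higher in the female library stands beside 18.0% of all 194 listed miRNAs, and 15.6% of the 32 miRNAs that reached 100 TPM in either library, that passed the same fold in that direction. Over both directions the share was 30.9%. With 1 of 5 members past the fold, the family was close to this background by count.

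The order of the members was nearly the same in both libraries. In the female library it was aof-miR827c, aof-miR827d, aof-miR827a, aof-miR827e and aof-miR827b, and in the male library the first pair changed places. aof-miR827c exceeded aof-miR827d 2.15-fold in the female library (counting interval 1.97 to 2.34). In the male library aof-miR827d stood 1.07-fold above aof-miR827c (0.986 to 1.17), so these neighbours did not differ beyond counting error there. The same held for aof-miR827e over aof-miR827b in the female library, at 1.41-fold (0.790 to 2.55), but not in the male library, at 3.11-fold (1.78 to 5.74).

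The make-up of the family therefore differed between the libraries. aof-miR827c held 57.0% of the female and 40.7% of the male family sum, aof-miR827d held 26.5% and 43.6%, and aof-miR827a held 14.7% and 13.0%. The 20-nt members together held 15.4% of the female and 13.7% of the male sum, so the 20-nt and 21-nt forms kept similar shares. The members ending in U at position 21 held 27.6% of the female and 45.6% of the male sum, with a ratio of 0.971 (0.887 to 1.06). U at position 20 was a minor form in both, at 1.83% and 2.66%.

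**Figure D2:**
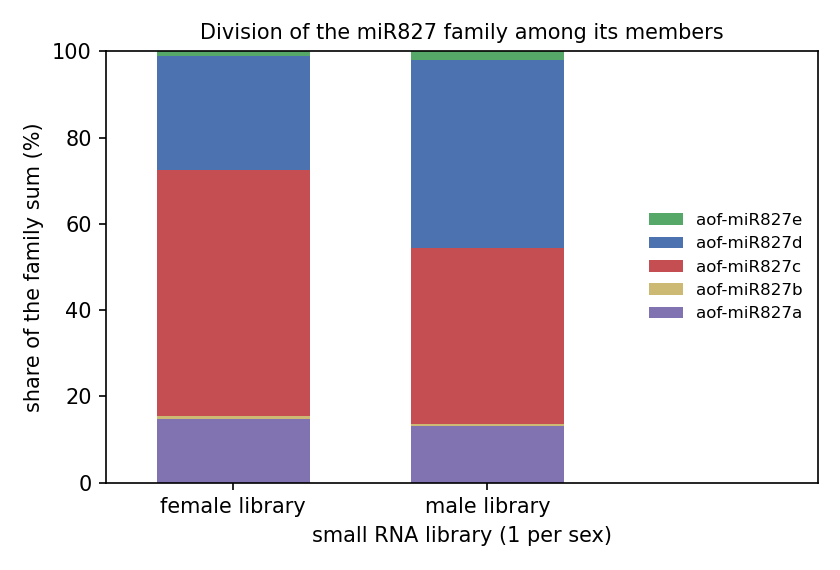
Share of the summed miR827 value (percent, axis from 0) held by each member in the female and the male library. aof-miR827c held 57.0% in the female and 40.7% in the male library, and aof-miR827d stood at 26.5% and 43.6%.

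Among the 10 pairs of members, the balance of the CA and CU forms had the narrowest interval. The log2 ratio of aof-miR827c exceeded that of aof-miR827d by 1.21 (counting interval 1.03 to 1.38), a 2.31-fold change of their ratio, and this value does not depend on how the libraries were scaled. The difference between aof-miR827c and the rare aof-miR827e was larger and less certain, at 1.40 (0.72 to 2.10). aof-miR827a lay between the abundant forms, with a difference of -0.31 from aof-miR827c (-0.55 to -0.08) and of 0.89 from aof-miR827d (0.64 to 1.14), and it differed from aof-miR827e by 1.09 (0.38 to 1.81). The other 5 intervals included 0. Among these, aof-miR827d and aof-miR827e, which share U at position 21, differed by 0.19 (-0.49 to 0.90), and the remaining 4 pairs all involved aof-miR827b.

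Pairs of listed miRNAs of equal length that differ at the last base only gave a scale for this. Within the family, the other such pair, aof-miR827a with the rare aof-miR827b, differed by -0.06 (-1.09 to 0.95). Outside the family there were 15 such pairs, several of which share a member, with a median absolute difference of log2 ratios of 0.44 and a range of 0.07 to 3.68. In 3 of the 15 the difference was over 1, and each of those rested on a member with a small value in one library: aof-miR159b was at 4.8 TPM in the female library against aof-miR159a and aof-miR159c, and aof-miR168e was at 1.88 TPM in the male library against aof-miR168a. Just under 1, aof-miR166f-1 (47.1 TPM female and 30.12 TPM male) and aof-miR166f-2 (31.1 and 37.65 TPM) differed by 0.92. The pairs of aof-miR396b-2 with aof-miR396b-4 and of aof-miR167d with aof-miR167c differed by 0.92 and 0.88. Only 1 pair outside the family had both members at 100 TPM or more in one library. It was aof-miR167h, at 1430.62 and 1116.28 TPM, with aof-miR167i, at 119.35 and 105.89 TPM, and it differed by 0.19. The 3 pairs of the family in which one form is 1 base longer differed by 0.31, 0.89 and 1.14, beside a median of 0.28 over 48 such pairs outside it, of which 8 differed by over 1.

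**Figure D3:**
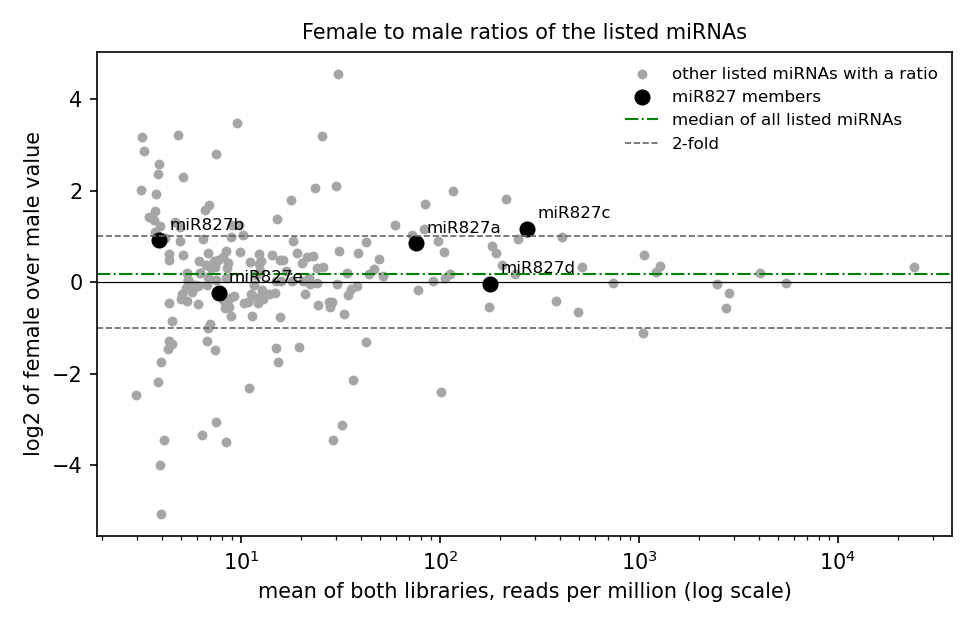
Log2 ratio of female to male for the miR827 members beside all listed miRNAs, plotted against abundance in TPM (log axis). aof-miR827c at 1.17 and aof-miR827d at -0.03 lie on either side of the median of all listed miRNAs, 0.17.

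The families with the nearest log2 ratios were miR164 (1357.46 and 882.22 TPM, 0.62), miR156 (172.86 and 116.08 TPM, 0.57) and miR319 (239.62 and 161.57 TPM, 0.57), which act on NAC, SPL and TCP transcription factor genes in other plants. With 2 libraries this likeness is the nearness of a single number. In all, 8 of the 26 families were over 2-fold apart and miR827 was not among them.

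Of 11 families known from phosphate, sulphate, nitrogen or copper supply in other plants, 3 were in the table: miR827, miR408 and miR528, the last 2 of which act on mRNAs of copper proteins. No other phosphate family of the list, such as miR399, was among the listed miRNAs. All 4 members of miR408 and miR528 were higher in the male library, and 3 of them were over 2-fold higher there, a direction in which 12.9% of all listed miRNAs passed. aof-miR408b, at 32.24 TPM (female) and 170.99 TPM (male), had the largest difference (log2 -2.41), and aof-miR528, at 144.27 and 208.95 TPM, the smallest (log2 -0.53). The 3 over 2-fold are aof-miR408a, aof-miR408b and aof-miR408c, each shorter form being the start of the next longer one, so they are not independent. These values come from the same 2 libraries as those of miR827.

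The target pairs are alignments of the miRNAs to asparagus unigenes, with a score that falls as pairing improves. Counting 1 for an unpaired base, 0.5 for a G:U pair and 2 for a gap gave the listed score for all 463 pairs. The 6 different sites of the 7 unigenes are shown because they tell the members apart, written 5′ to 3′ on the strand that pairs, so that the last base faces base 1 of the miRNA. Capitals mark bases that are unpaired or in a G:U pair with the member named.
UN49821 with aof-miR827c: uguuuguugaugguUCuUuaa
UN10001 and UN05184 with aof-miR827c: uUuuAguugauggucaCcuaa
UN10366 with aof-miR827b: auCuguugaugUucauUuaa
UN26156 with aof-miR827b: auuuguuAGugUucauUuaa
UN08767 with aof-miR827b: aGuuguugaugUucGucuGa
UN07601 with aof-miR827a: guuugugaugUucaucuaa

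UN49821, which had no hit in the protein search, was the best paired unigene and the one listed for the most members. Its site ends at position 54 of the unigene. aof-miR827a and aof-miR827c scored 2 there, with base 6 unpaired and G:U pairs at bases 4 and 7, aof-miR827b scored 2.5 and aof-miR827d scored 3, since base 21 was then unpaired as well. These 4 members held 98.9% of the female and 98.0% of the male family sum.

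UN10001 and UN05184 were listed for aof-miR827a, aof-miR827b and aof-miR827c, each at a score of 3. UN10001 was annotated as 6-phosphogluconate dehydrogenase, an enzyme of the oxidative pentose phosphate pathway that yields NADPH, and its site covered positions 483 to 503 of the unigene, with position 494 opposite base 10. UN05184 was annotated as inorganic pyrophosphatase, which splits pyrophosphate into phosphate, and its site lay on the minus strand, at positions 105 to 125. Its protein hit was weaker than that of UN10001, with E values of 6e-08 and 4e-127 (lower is a closer match). A minus-strand site pairs with the complement of the listed unigene, and which strand is transcribed was not examined here. The 2 sites were identical in 21 of 21 bases, with bases 5, 17 and 20 unpaired. As base 20 was unpaired whether C or U, the C20U change cost nothing here, whereas the U at position 21 brought aof-miR827d and aof-miR827e to a score of 4, over the highest listed score of 3. The 3 listed members summed to 480.38 TPM (female) and 224.33 TPM (male), with a ratio of 2.14, and made 72.4% and 54.4% of the family sum.

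UN10366 and UN26156 were listed only for the members with U at position 20. UN10366 was annotated as a 50S ribosomal protein L13, part of the large subunit of organelle-type ribosomes, and was scored at 2.5 with aof-miR827b and at 3 with aof-miR827e. UN26156 had no hit and scored 3 with both. At UN10366 aof-miR827a reached 3.5, aof-miR827c 4.5 and aof-miR827d 4, all over the highest listed score, so the abundant members, which carry C at position 20, were not listed there. aof-miR827b and aof-miR827e together came to 12.12 TPM (female) and 10.98 TPM (male).

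The last pair of unigenes was listed for 1 member each, at a score of 3. UN07601 was annotated as a carbonyl reductase [NADPH] 2-like protein, an oxidoreductase of carbonyl compounds, and was listed with aof-miR827a on the minus strand with a gap at base 14. It was the only one of the 16 pairs in which all seed bases were paired. UN08767 was annotated as a splicing factor 3B subunit 1-like protein, of the complex that binds the branch point of introns, and was listed with aof-miR827b.

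**Figure D4:**
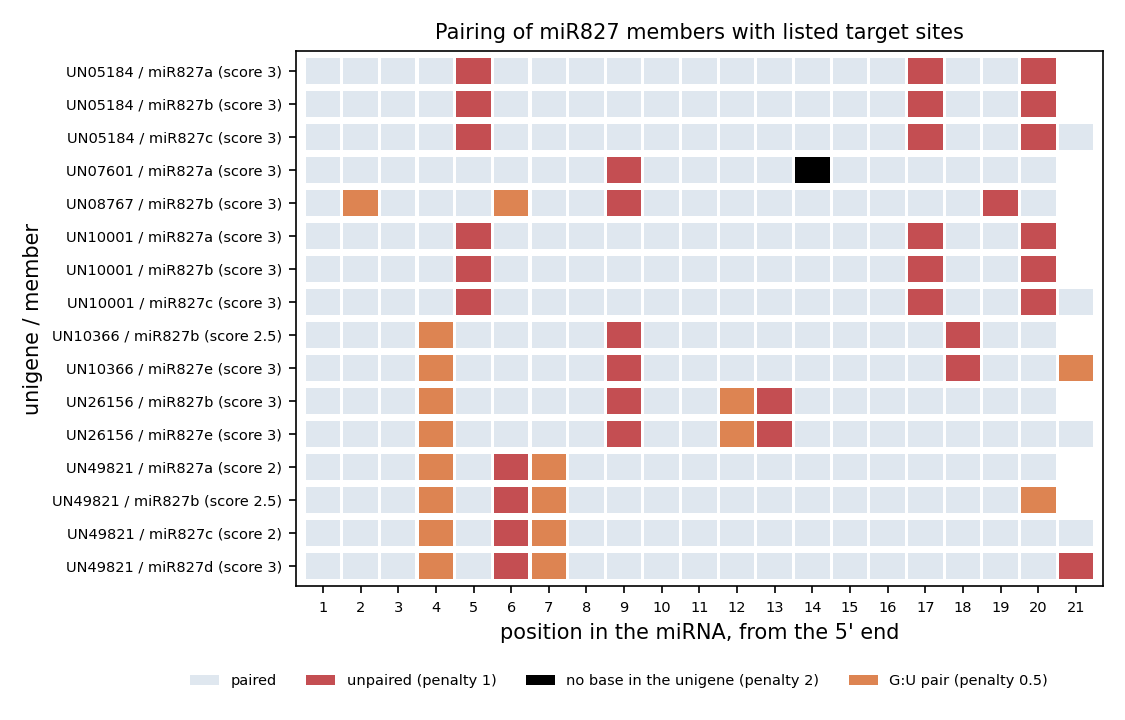
Pairing of each miR827 base (position from the 5′ end) in the 16 listed target pairs, with paired, G:U, unpaired and gapped positions marked. Positions 10 and 11 were paired in all 16, and on the 5′ side positions 4, 5, 6, 7 and 9 were those most often in a G:U pair or unpaired.

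The miR827 pairs were seldom paired along the whole seed, and bases 10 and 11 were paired in each of them. Their scores ran from 2 to 3 with a median of 3, beside 2.5 over all 463 pairs, and 12 of the 16 (75%) stood at the highest listed score of 3, beside 40.0%. None scored under 2, whereas 29.6% of all pairs did. The seed was paired throughout in 6.25% of the miR827 pairs and in 56.2% of all pairs, or 43.1% of the 253 pairs of conserved families, whose median score was also 3. Bases 10 and 11, opposite which plant miRNAs usually direct the cut, were paired in 16 of 16 pairs, close to the 92.2% of all. The pairs of 1 family share 19 bases of miRNA and 7 unigenes, so they are not independent, and these shares were set side by side without a test.

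Base 9 was unpaired in 6 of the 16 pairs, on 4 of the 7 unigenes. Over all listed pairs, base 9 was not paired in 12.7%. Base 4 was in a G:U pair in 8 pairs, on 3 unigenes, and over all listed pairs it was not paired in 9.72%. At UN26156, base 12 was in a G:U pair and base 13 was unpaired. No pair had a mismatch at base 1, 3 or 8.

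Within the target table, all 7 unigenes were listed for the miR827 family only. The same share over all 194 target unigenes is not given here, so this is not read as a trait of the family. The targets that the study took from its degradome library were not included in the count for these 7 unigenes. There the study names 6-phosphogluconate dehydrogenase, the annotation of UN10001, as a gene that both aof-miR827 and aof-miR167a can regulate. Whether the gene meant was UN10001 was not examined here. By member, aof-miR827b had 6 unigenes, aof-miR827a 4, aof-miR827c 3, aof-miR827e 2 and aof-miR827d 1. The number of listed unigenes did not follow abundance, since aof-miR827b was the least abundant member in both libraries and aof-miR827d the most abundant in the male library.

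None of the 16 miR827 pairs was annotated with the target classes known from Arabidopsis and rice, an SPX domain, NLA or a vacuolar phosphate transporter, and none of the 463 pairs of any family was. Of the wider phosphate supply terms, 1 of the 463 pairs matched, UN06250, a ubiquitin-conjugating enzyme E2 25-like protein listed for miR394 at a score of 2.5. It matched on the general term ubiquitin-conjugating enzyme, and whether it acts in phosphate supply was not examined. As 6 of the 16 miR827 pairs (37.5%) had no protein hit, and the unigene sequences were not analysed here, these counts describe the annotations only. The study also searched for cut targets by degradome sequencing, and reports 6-phosphogluconate dehydrogenase for aof-miR827 from it. The degradome reads were not analysed here, so the values above bear on pairing and not on cleavage of the 7 unigenes.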

How the data were processed

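Small RNA was sequenced from 1 pooled library per sex. The RPM values deposited by the authors, who call them TPM, are reads of each unique small RNA scaled to its library. The study removed adapters, low-quality reads and structural RNAs, and the listed miRNAs are of 20 to 24 nt. Which reads served as the divisor was not settled. The scores deposited by the authors belong to alignments of miRNAs to unigenes. The study names psRNATarget for its target prediction and CleaveLand for its degradome targets, while the table itself names no program and so was read as a prediction by pairing. Positions are those of the unigenes. No column was left unmatched to a library.

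Ratios of female to male and their log2 were computed without a pseudocount or filter, and values were summed over members. Exact binomial (Clopper-Pearson) 95% intervals were used for ratios, and conditional odds ratio intervals for differences of log2 ratios between members. Both rest on the steps of the values being reads. No count test was run, since the values are scaled. A fold of 2 was used for counts. Scores were recomputed from the listed alignments, and the code was tested on simulated data.

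Named were every member and target unigene of the family, the 3 families nearest in log2 ratio, the miRNA with the longest shared stretch, pairs differing at the last base only with at least 100 TPM, listed families of the nutrient list, and unigenes matching the target terms. aof-miR159a, aof-miR159b, aof-miR159c, aof-miR168a and aof-miR168e were named after their values were seen. The same holds for aof-miR166f-1, aof-miR166f-2, aof-miR167c, aof-miR167d, aof-miR396b-2 and aof-miR396b-4. The members and lists were chosen with earlier results of these data known. Alternatives were pseudocounts of 1 and 5, a minimum of 10 TPM, other scalings, folds of 1.5 and 3, single members left out and other ways to count target pairs. Python 3.11.15, numpy 2.4.6, scipy 1.17.1 and matplotlib 3.10.9 were used.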

Additional observations from a re-analysis of the deposited data

How the results depend on the processing

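Of 63 values recomputed under alternatives, 42 stayed within the limits set for them, 21 moved and 0 reversed. All 25 recomputed log2 ratios of single members kept their sign, but these settings could not have changed it. A pseudocount cannot turn a sign, and the rescalings shifted every log2 ratio by only -0.17, -0.16 or -0.03. The family log2 ratio of 0.68 became 0.51 when rescaled by the median ratio, 0.53 by the summed listed values, 0.22 without aof-miR827c and 1.07 without aof-miR827d. The count of members over 2-fold apart went from 1 to 0 with the median rescaling, to 3 at 1.5-fold and to 0 at 3-fold. Over all listed miRNAs the count of 60 became 32 with a pseudocount of 5, 34 with a minimum of 10 TPM, 93 at 1.5-fold and 35 at 3-fold. The 34 is over a shorter list than the 60, since the minimum removes miRNAs that are below it in both libraries. The share of aof-miR827c became 67.4% in the female and 47.1% in the male library over the 21-nt members alone, and 71.7% and 53.7% with aof-miR827a added to it. The 16 target pairs were 7 when unigenes were counted once and 4 with a score at or under the median of all pairs. The log2 difference of 1.21 between aof-miR827c and aof-miR827d was 1.20 and 1.18 with pseudocounts of 1 and 5. No paired analysis was possible because each sex has 1 library and no result comes from a test. Variation between plants, organs and library preparations was not measured, and depth limits the rare aof-miR827b and aof-miR827e.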

Other observations

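Each of the 5 members was also set against each of the 7 sites, which gave 35 combinations, of which 16 were listed. Of the 19 others, 16 scored over 3, up to 5, which is above the highest listed score. The remaining 3 scored 3 over their first 20 bases, but the base of the unigene facing base 21 is not part of the listed alignment: aof-miR827c and aof-miR827d at UN07601, and aof-miR827e at UN08767. aof-miR827e reached 3.5 at UN49821, so that unigene was 0.5 over the limit for the only member not listed for it.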
